A study of Mus musculus with 2 samples.

Results

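Genes of primary (azurophil) granule enzymes and 2 further genes of neutrophil precursors were followed in mouse bone marrow cultures grown with or without interleukin-6. The 6 genes were Mpo, Elane, Prtn3, Ctsg, Ms4a3 and Fcnb, among 20141 genes named on the array and 13840 measured in both cultures. They were chosen by name, and every array probe whose RefSeq accession leads to one of these symbols was used. Each gene had 1 such probe, printed as 1 spot. Marrow of C57BL/6 mice was grown for 4 days with GM-CSF at 40 ng/ml, a cytokine that drives granulocyte and macrophage growth, and 5% fetal bovine serum. The plus IL-6 culture received 40 ng/ml IL-6 in addition, and the GM-CSF only culture did not. The labels call the product of both cultures myeloid-derived suppressor cells, immature myeloid cells that restrain T cells, and do not say how many mice gave the marrow. Each culture gave 1 total RNA sample on 1 Agilent array with Cy3. There were thus 2 samples, 1 per condition, and no difference below has a replicate check or a p-value.

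Neutrophils fill their granules in a fixed order as they mature, and the contents of each granule type follow from which genes are transcribed at that stage. Primary granules form at the promyelocyte stage, when Mpo, Elane, Prtn3 and Ctsg are transcribed strongly, and transcription of these genes is shut down before secondary and tertiary granules form. The genes therefore mark dividing precursors in bone marrow, while the proteins persist in mature cells. Myeloperoxidase makes hypochlorous acid from hydrogen peroxide, and the 3 serine proteases neutrophil elastase (Elane), proteinase 3 (Prtn3) and cathepsin G (Ctsg) cut proteins of microbes and of the matrix. Ms4a3 encodes a membrane protein of granulocyte and monocyte progenitors linked to control of the cell cycle, and Fcnb encodes ficolin B, a pattern-recognition lectin, so that 4 of the 6 genes encode enzymes of the primary granule and these 2 do not.

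The stretches before the start sites of the 4 enzyme genes share a short run of letters. Each is the 250 bases upstream of the gene start from RefSeq on GRCm38.p6, on the strand of the gene, at chr11:87793534-87793783 (plus strand) for Mpo, chr10:79886062-79886311 (plus) for Elane, chr10:79879417-79879666 (plus) for Prtn3 and chr14:56102575-56102824 (minus) for Ctsg. Capitals mark GGAAGT, a core bound by PU.1 and other ETS factors, which was searched on both strands.
Mpo: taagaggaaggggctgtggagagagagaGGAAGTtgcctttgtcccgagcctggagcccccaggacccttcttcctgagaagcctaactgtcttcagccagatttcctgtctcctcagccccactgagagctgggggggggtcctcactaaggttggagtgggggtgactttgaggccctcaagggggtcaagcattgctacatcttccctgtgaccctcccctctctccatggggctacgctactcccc
Elane: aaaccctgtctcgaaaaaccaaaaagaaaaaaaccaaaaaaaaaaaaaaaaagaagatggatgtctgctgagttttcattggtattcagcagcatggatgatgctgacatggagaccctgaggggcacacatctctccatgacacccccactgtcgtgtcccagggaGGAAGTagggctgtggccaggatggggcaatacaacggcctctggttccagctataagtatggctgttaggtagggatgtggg
Prtn3: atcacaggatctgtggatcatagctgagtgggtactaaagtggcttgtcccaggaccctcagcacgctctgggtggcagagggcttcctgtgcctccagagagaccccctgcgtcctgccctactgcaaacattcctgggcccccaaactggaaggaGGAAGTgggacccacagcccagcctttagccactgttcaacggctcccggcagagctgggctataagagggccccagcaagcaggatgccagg
Ctsg: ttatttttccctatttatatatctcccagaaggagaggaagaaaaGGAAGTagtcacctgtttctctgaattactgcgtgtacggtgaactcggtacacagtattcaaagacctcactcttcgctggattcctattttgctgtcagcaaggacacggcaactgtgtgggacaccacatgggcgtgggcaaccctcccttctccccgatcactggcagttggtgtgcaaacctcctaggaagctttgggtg
The letters GGAAGT were present upstream of all 6 genes, including Ms4a3 and Fcnb, against 19.7% of 32851 RefSeq promoter stretches of the same length. The longer AGGAAGT, which overlaps it, was upstream of 5 of the 6 genes, all but Ms4a3, against 7.69% of the stretches. In each of the 6 genes these letters ran on the strand of the gene. They lay 83 to 78 bases before the start of Elane and 93 to 88 before that of Prtn3, while the match of Mpo began 222 and that of Ctsg 205 bases before the start. TATAA was upstream of 4 of the 6 genes, against 22.8% of stretches on either strand. It stood 31 to 27 bases before the start of Elane, 32 to 28 before Prtn3 and 37 to 33 before Fcnb, and on the opposite strand 236 to 232 bases before that of Ctsg. The C/EBP letters TTNCNNAA were found upstream of 2 genes, Fcnb and Ms4a3, against 36.8% of stretches, the MYB letters AACNG upstream of 5 against 74.2%, and the RUNX letters TGNGGT upstream of 1, Ctsg, against 40.1%. These are matches of letters and no binding was measured. The motifs were picked with the sequences in view, so the shares describe these stretches and are not a test.

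All 6 probes were well above background on both arrays, with no saturated pixel called and no outlier flag. The deposited signals ran from 3665.88 (Fcnb) to 133514 (Mpo) with IL-6 and from 4632.84 to 143259 without, over local backgrounds of 40 to 65 units. Signals below are scaled so that both arrays share the same 75th percentile, and the log2 ratio is plus IL-6 minus GM-CSF only. Of the measured genes, 94.1% to 99.1% had a lower signal than Mpo, Elane, Prtn3, Ctsg or Ms4a3 on either array, and 77.2% (plus IL-6) and 78.7% (GM-CSF only) had a lower signal than Fcnb. These shares place the probes on the range of the arrays. Signals of different probes are not amounts of RNA and were not compared. Beside the myeloid identity given by the labels, 9 general myeloid genes were read. All 9 were measured on both arrays, among them Itgam, which encodes CD11b. Being measured cannot check that identity, since 9 of 10 B cell markers were measured too. The median log2 ratio of the general myeloid genes was -0.0049 with 4 higher and 5 lower. They ran from Csf1r (-0.25) and Lyz2 (-0.12) to S100a9 (0.14) and Spi1 (0.16). The other probes of Csf1r had -0.20 and 0.26, so its sign was not settled.

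**Figure D1:**
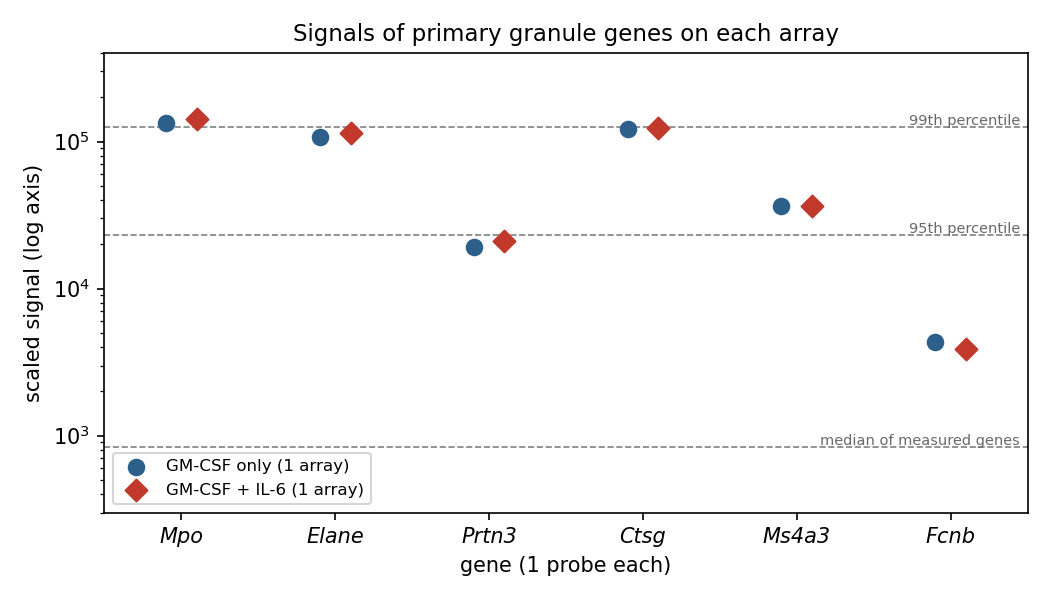
Scaled signal (log axis) of each gene on the GM-CSF only array (circles) and the plus IL-6 array (diamonds), 1 probe and 1 array each, so no error bars are drawn. Dashed lines are percentiles of the measured genes over both arrays. The circle and the diamond of each gene lie close together, and Fcnb, at 3898.19 and 4356.75, is the only 1 of the 6 well below the 95th percentile line.

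The 3 serine protease genes were slightly higher or level with IL-6. Prtn3 had a scaled signal of 21032 with IL-6 and 19144 without. This was the largest of the 6 differences upward, a log2 ratio of 0.14 ± 0.04 (technical SD from probes printed several times on the array), or 9.87% higher. Elane had 113841 with IL-6 and 107015 without, a log2 ratio of 0.09 ± 0.04 (6.38% higher). Elane is the neighbour of Prtn3 on chromosome 10, and the log2 ratios of the pair differed by 0.05 with a technical SD of 0.06. Ctsg had 123388 and 122370, a log2 ratio of 0.01 ± 0.04 (0.831% higher), so its value was within the technical SD of 0. The log2 ratio of Prtn3 lay 0.12 above that of Ctsg, with a technical SD of 0.06.

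Mpo had a scaled signal of 141975 with IL-6 and 134721 without. The difference was a log2 ratio of 0.08 ± 0.04, or 5.38% higher. The log2 ratios of Mpo and Elane differed by 0.01 with a technical SD of 0.06, the smallest gap between any 2 of the 6 genes.

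The 2 genes that encode no enzyme were level and lower. Ms4a3 had a scaled signal of 36431 with IL-6 and 36524 without, a log2 ratio of -0.0037 ± 0.04, the value nearest to 0 among the 6. Fcnb had 3898.19 with IL-6 and 4356.75 without, a log2 ratio of -0.16 ± 0.05 (0.895 times the GM-CSF only signal). Fcnb was thus the 1 gene of the 6 below 0 by more than its technical SD, and its gaps to the other 5 log2 ratios ran from 0.16 (Ms4a3) to 0.30 (Prtn3). Its spot lay in the second column from the edge of the array. In columns 1 to 3 the log2 ratios of 159 bright genes had a median of -0.05 and an SD of 0.15, against -0.03 and 0.13 for the 8048 genes brighter than the 75th percentile at all positions. Fcnb had -0.19 after subtraction of the local median of the array and -0.07 on signals without detrending, both below 0. The Ms4a3 spot lay in the last 4 rows, where 95 such genes had a median of -0.04 and an SD of 0.12.

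In order, the log2 ratios were those of Prtn3, Elane, Mpo, Ctsg, Ms4a3 and Fcnb. Neighbours in this order from Prtn3 to Ms4a3 differed by 0.225 to 1.06 technical SDs of the difference, and Ms4a3 and Fcnb differed by 2.31 technical SDs. Of the 15 pairs, 7 differed by more than 2 technical SDs, and 5 of those 7 involve Fcnb. That count was 6 or 7 in 9 of the 11 settings of processing tried, 3 without detrending and 1 with normexp background correction. The 9 include the main setting. They also include median centring, outlier spots kept and the median over probes, which could not change any gap between these genes. The technical SD covers spot error only. Among 8 repeated probes at least as bright as Prtn3, the SD of spot log2 ratios had a median of 0.034 and a range from 0.0177 to 0.0504. Labelling, hybridisation and culture add error that 1 array per condition cannot show. The extraction software assigns each signal a multiplicative error of 10%, which is a setting, and this gives an error of 0.20 for each of the 6 log2 ratios, larger than every one of them. By that error 1 of the 15 pairs differed by more than the error of its difference. Probes of the same gene also disagree. For 364 genes with both probes at least as bright as Fcnb, their log2 ratios differed by a median of 0.06, and by up to 0.15 in 90% of them.

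**Figure D2:**
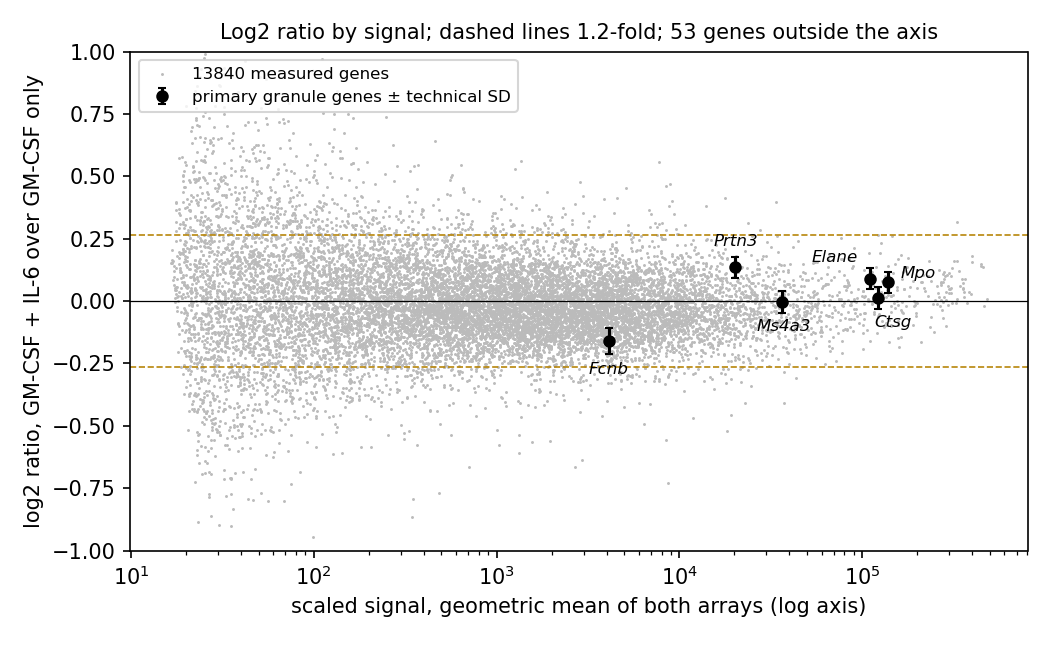
Log2 ratio (plus IL-6 over GM-CSF only) against the geometric mean of the scaled signals (log axis) for 13840 measured genes (grey). Mpo, Elane, Prtn3, Ctsg, Ms4a3 and Fcnb are in black with their technical SD as bars. All 6 lie between the dashed 1.2-fold lines, from -0.16 (Fcnb) to 0.14 (Prtn3), and 53 genes are outside the axis.

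None of the 6 genes reached even 1.2-fold in either direction, and so 0 of 6 reached 1.5-fold or 2-fold. Among all measured genes, 12.3% were past 1.2-fold (6.37% higher and 5.97% lower), 1.55% past 1.5-fold and 0.383% past 2-fold. Of the 1707 genes past 1.2-fold, 347 were brighter than the 75th percentile. Among the 3051 genes at least as bright as Fcnb, 3.51% were past 1.2-fold, so a count of 0 in 6 is near this background. The median log2 ratio of the 6 genes was 0.04, with 4 higher and 2 lower, against a median of -0.02 with 43.8% higher over all measured genes. Without Fcnb the median was 0.08.

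Set against the 200 genes nearest in signal, Prtn3 stood farthest out. Those near Prtn3 had a median of -0.05 and an SD of 0.12, and the middle 90% of them ran from -0.24 to 0.13, just short of the value of Prtn3. The 200 genes nearest to Elane had a median of 0.003 and an SD of 0.10, and those nearest to Mpo a median of 0.01 and an SD of 0.09, so both values were less than 1 such SD away. Ctsg was 0.0044 above and Ms4a3 0.03 above the median of their 200 nearest genes. Fcnb was lower than its 200 nearest genes by a log2 difference of -0.13, with an SD over those genes of 0.12, and lay inside their middle 90%, which ran from -0.24 to 0.14.

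Other ways of processing the same 2 arrays kept the ends of this order. Prtn3 had the highest and Fcnb the lowest log2 ratio of the 6 under all 11 settings, the main one included. Of these, 2 (outlier spots kept, median over probes) could not change genes with 1 unflagged spot. Median centring moved all log2 ratios alike and so could not change the order. The authors' matrix and quantile normalization gave nearly the same values and the same order. The difference between Prtn3 and Fcnb ran from 0.19 to 0.31. Over these settings Mpo ran from 0.03 to 0.08 and Prtn3 from 0.10 to 0.18, both above 0 throughout, and Fcnb from -0.19 to -0.07, below 0 throughout. Elane ran from -0.01 to 0.09, below 0 only after subtraction of a local median over the array. That setting lowered the median of all measured genes from -0.02 to -0.08. Ctsg ran from -0.06 to 0.04 and Ms4a3 from -0.06 to 0.03, so neither had a settled sign.

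**Figure D3:**
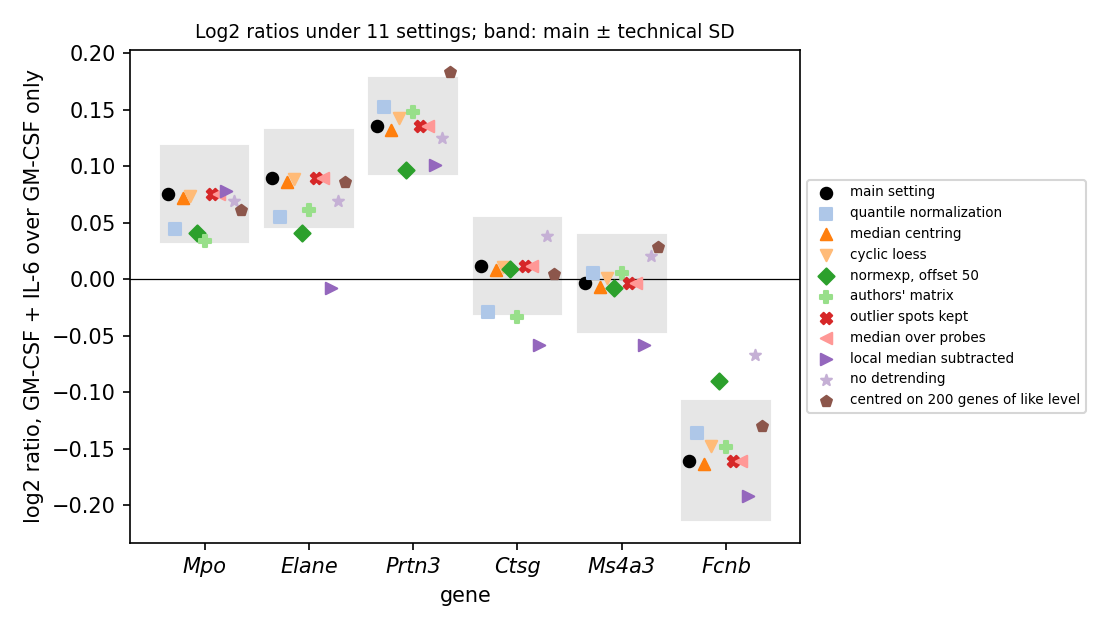
Log2 ratio (plus IL-6 over GM-CSF only) of each gene under 11 settings of processing (symbols), with the main value ± technical SD as a grey band. Prtn3 is highest and Fcnb lowest under each setting, and Ctsg and Ms4a3 cross 0.

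Other genes of primary granule biology gave values as small. Of 16 genes for further granule contents, packaging and processing, 15 were measured, 3 higher and 12 lower, with a median of -0.06 and 0 past 1.2-fold. Prss57, a further serine protease of the same granules, had a log2 ratio of -0.06 ± 0.05. Ctsc, whose product cathepsin C activates the 3 serine proteases, had -0.03 ± 0.04, and Srgn, encoding the proteoglycan on which they are packed, -0.10 ± 0.04. Calr, a chaperone of myeloperoxidase folding, had 0.15 ± 0.04 and Canx, another such chaperone, 0.01. The lowest were the lysozyme gene Lyz1 at -0.19 ± 0.04 and Lyst, a regulator of granule size, at -0.17 ± 0.07. Bpi was not well above background on either array. Lyz1 shares near-identical sequence with Lyz2 (-0.12), and their probes may not tell them apart.

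Inhibitors of the granule proteases were mostly lower by small amounts. Of 15 listed, 13 were on the array under these names and 10 were measured, 1 higher and 9 lower, with a median of -0.12 and 0 past 1.2-fold. Serpinb1a, an intracellular inhibitor of elastase, proteinase 3 and cathepsin G, had 44342 with IL-6 and 46207 without (log2 ratio -0.06 ± 0.04). Slpi, a secreted inhibitor of elastase and cathepsin G, had -0.14 ± 0.04. The lowest were Serpinb6b at -0.24 and Serpinb2 at -0.20, and the highest outside the lowest 25% by signal were Wfdc21 and Serpinb9, both at -0.05.

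Among transcription factors of early granulopoiesis, 15 of 15 were measured, 5 higher and 10 lower, with a median of -0.05. Cebpa, required for the step into the granulocyte and monocyte lineage, was the only 1 past 1.2-fold, with 2897 against 2310 (log2 ratio 0.33 ± 0.05, 1.25-fold higher). Spi1, which encodes PU.1, had 0.16 ± 0.05. Myb, an activator of primary granule genes, had -0.04 ± 0.04. Gfi1, a repressor needed for neutrophil differentiation, had -0.14 ± 0.05. Cebpe, which drives the change to secondary granules, had -0.18 ± 0.04 and Cebpd -0.21 ± 0.04.

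Genes of later neutrophil stages were read beside a background in which 4829 of the 8048 genes brighter than the 75th percentile were lower, with a median of -0.03. Secondary and tertiary granule genes, of which 16 of 18 were measured, had a median of -0.07 with 3 higher and 13 lower, and 1 was past 1.2-fold, the metalloprotease gene Adam8 at -0.31 ± 0.04. Mmp8, neutrophil collagenase, had -0.25 ± 0.04, and Pglyrp1 and Lcn2, antibacterial granule proteins, had 0.17 and 0.12. Mature neutrophil genes, 15 of 15 measured, had a median of -0.09 with 5 higher and 10 lower, and Fpr1 (-0.36) and Clec4d (-0.32) were past 1.2-fold. The highest were G0s2 at 0.16 and S100a9 at 0.14. Progenitor genes, 14 of 14 measured, had a median of -0.02 with 7 higher and 7 lower. Among them were the receptor genes Kit at 0.20 ± 0.04 and Flt3 at -0.12, and Angpt1 at 0.17. Past 1.2-fold were 1 progenitor gene upward, also past 1.5-fold, and 1 downward. The progenitor median was 0.05 with the median over probes and below 0 in the other settings run for the lists. Its sign thus depended on which probes were used. Proliferation genes, 18 of 18 measured, had a median of 0.05 with 11 higher and 7 lower, led by the helicase gene Mcm2 at 0.28 and the kinase gene Plk1 at 0.18, with Ccnb2 (-0.11) and Pcna (-0.07) lowest.

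Paralogs of the 6 genes ran over a wider range than the genes themselves, in a longer list with many dimmer genes. Of 28 listed, 27 were on the array under these names and 19 were measured, 6 higher and 13 lower, with a median of -0.09. Past 1.2-fold were 2 upward and 3 downward, all of them dimmer than Fcnb, the dimmest of the 6 genes. The share past 1.2-fold was 12.3% among all measured genes and 3.51% among those at least as bright as Fcnb. Epx, the eosinophil peroxidase gene close to Mpo on chromosome 11, had 0.12 ± 0.04. Fcna, the other mouse ficolin gene, was not well above background on either array. In the family of Ms4a3, Ms4a7 had -0.54 ± 0.05 and Ms4a6c -0.43 ± 0.05, both monocyte and macrophage genes, while the mast cell and basophil gene Ms4a2, the gene next to Ms4a3 on chromosome 19, had 0.28 ± 0.11. The mast cell protease gene Cma2, related to Ctsg, had 0.22 ± 0.07.

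**Figure D4:**
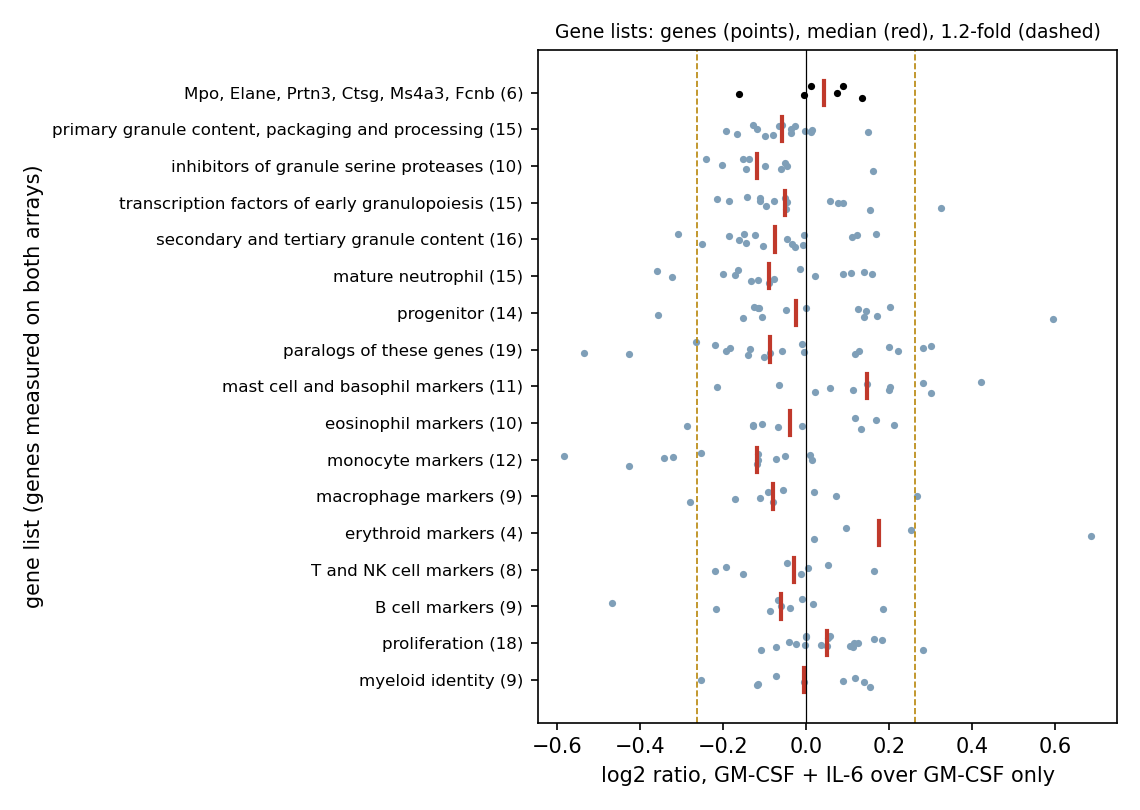
Log2 ratio (plus IL-6 over GM-CSF only) of each measured gene (points) and the median (red line) of the 6 genes and 16 other lists, with the number measured in brackets. The 6 genes stay within the dashed 1.2-fold lines, and the medians of the mast cell and basophil list (0.15) and the erythroid list (0.18, over 4 genes, and 0.058 without dim genes) lie farthest to the right.

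Markers of other cell types were read on the same arrays, and in bulk RNA fewer cells of a type and less RNA per cell cannot be told apart. Mast cell and basophil markers, of which 11 of 13 were measured, had a median of 0.15 with 9 higher and 2 lower and 3 past 1.2-fold upward. The scaled signals of the same probes, in which the brightest weigh most, summed to 102805 with IL-6 and 94975 without. Tpsb2 had 0.42 ± 0.05 and -0.11 on its other probe, Hdc had -0.21 and Cyp11a1 -0.06, and Cma1 was not well above background on either array. Mast cells also make cathepsin G, and the part of these cells in the Ctsg value was not tested. Eosinophil markers, 10 of 10 measured, had a median of -0.04 with 4 higher, among them Prg3 (0.21) and Prg2 (0.17), with Alox15 (-0.29) and Ear2 (-0.13) lowest. Monocyte markers, 12 of 12 measured, had a median of -0.12 with 2 higher and 10 lower and 4 past 1.2-fold downward. Their signals summed to 425389 with IL-6 and 441988 without, of which Ly6c1 alone gave 283059 and 280144. Cx3cr1 had -0.58 on both of its probes, and Ly6c1 and F13a1, the highest, had 0.01 each on the brightest probe and -0.13 and -0.19 on their other probe. Since Ms4a3 is transcribed in progenitors of monocytes as well as of neutrophils, these values stand beside its own log2 ratio near 0, and their part in it was not tested.

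Macrophage markers, 9 of 10 measured, had a median of -0.08 with 3 higher and 6 lower, from Msr1 at -0.28 and C1qb at -0.17 to Mertk at 0.07 and Mrc1 at 0.27. Erythroid markers were mostly at background. Klf1, Alas2, Epb42 and Rhd were not well above background on either array, and the 4 measured had a median of 0.18, with Hbb-bt at 0.10 and Gata1 at 0.02. The other 2 were among the lowest 25% by signal, Hba-a1, encoding an alpha globin, at 0.69 ± 0.11 and Slc4a1 at 0.25 ± 0.25, and without these dim genes the erythroid median was 0.058. T and NK cell markers, 8 of 10 measured, had a median of -0.03. Outside the lowest 25% by signal they ran from Cd3d at -0.22 and Lck at -0.04 to Prf1 at 0.0046 and Cd4 at 0.16. Ncr1 and Klrb1c were not well above background. B cell markers, 9 of 10 measured, had a median of -0.06. Outside the lowest 25% by signal, Blnk at -0.22 and Ebf1 at -0.09 were lowest and Cd22 at 0.02 and Cd79a at 0.19 highest. Igll1 was well above background on 1 array only. Over the 16 lists, 21 of 176 measured genes were past 1.2-fold (11.9%) and 0 past 2-fold, beside 12.3% past 1.2-fold among all measured genes.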

How the data were processed

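Spot intensities were deposited as output of Agilent Feature Extraction 10.7.1.1, which detrended them within each array, per the file headers. The 75th percentile of the deposited intensities was 486.2 with IL-6 and 549.7 without, so arrays had not been scaled to each other. The authors' matrix holds log2 values close to the log2 intensities (r = 0.99998 on both arrays, both medians 5.10), and its making is not stated in the files. Its log2 ratios lay close to those with quantile normalization, with 0.0055 under both for Ms4a3 and 0.15 under both for Prtn3. These 2 settings are therefore not separate checks.

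Each value is the log2 intensity minus the array's 75th percentile over 59305 non-control spots, without outlier spots. A gene took its brightest probe among those called well above background, in at least 50% of spots, on both arrays. Accessions were named through RefSeq (GRCm38.p6), which gave 1 symbol for 26576 of 28116 RefSeq probes. Technical SDs came from 266 probes printed at least 5 times, in 6 bins by signal, over the square root of a gene's spots. Precision is limited by the number of arrays.

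The genes and lists were chosen with earlier results of these data known. Named are the 6 genes, the 2 highest and 2 lowest of each other list outside the lowest 25% by signal, and Gfi1, Cebpa, Cebpe, Spi1, Myb, Ctsc, Srgn, Serpinb1a, Slpi, Prss57, Epx and Fcna. A gene that this rule would name is not reported here. Itgam, Lyz2 beside Lyz1, Hba-a1, Slc4a1, markers at background and chromosomal neighbours were named after their values were seen, and the general myeloid list was added then.

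The steps were tested on simulated data for this comparison (14203 genes, spot error only). All 100 genes set to 0.14 and all 100 set to 0.50 came out in the right direction, and 1 and 100 of them passed 1.2-fold. Of 7841 unchanged genes brighter than the 75th percentile, 1 passed 1.2-fold. In the data 347 of 8048 genes of such brightness did. The simulation therefore cannot show how well the sign of a small difference between 2 cultures is known. Alternatives were median centring, cyclic loess, quantile normalization, normexp (offset 50), the authors' matrix, outlier spots kept, the median over probes, a local median over 31 rows and columns, and other filters on dim probes. Signals without detrending and centring on 200 genes of like signal were added after the data were seen. Tools were Python 3.11.15, numpy 2.4.6, pandas 2.3.3, matplotlib 3.10.9, R 4.3.3 and limma 3.58.1.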

Additional observations from a re-analysis of the deposited data

How the results depend on the processing

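Of 60 recomputed log2 ratios of the 6 genes, 52 moved by less than the technical SD and 8 by more, and none reached 1.2-fold in any setting. The sign changed in 9, to values within 0.06 of 0. These were ratios of Ctsg and Ms4a3, near 0 in the main setting, and of Elane, which had 0.09 there. Keeping outlier spots and taking the median over probes could not change these ratios, since each gene has 1 probe with 1 spot and no outlier flag. Subtraction of the local median gave -0.00797 for Elane, -0.0579 for Ctsg, -0.0578 for Ms4a3 and -0.0329 for the median of the 6 genes, and by its construction it also lowered the median of all genes. Normexp gave 0.041 for Elane and -0.0896 for Fcnb, no detrending gave -0.0673 for Fcnb, the authors' matrix gave -0.0336 for Ctsg, and centring on 200 genes of like signal gave 0.183 for Prtn3, and the cause was not tested. Of 160 recomputed list medians, 153 moved by less than the technical SD of a gene, and 6 changed sign. A median over many genes varies less than a single gene, and keeping outlier spots changed none of the medians. The count of 153 therefore says little about how stable they are. The 21 list genes past 1.2-fold became 16 to 28 in other settings. Signals without detrending and centring on 200 genes of like signal were not run for the lists. Without detrending, 20.2% of all measured genes were past 1.2-fold, against 12.3% in the main setting. No paired analysis was possible because neither condition had a second array. Without a replicate in either condition, no array could be left out. Spot error limits single differences to a technical SD of 0.04 to 0.05 on the log2 scale at the signals of these genes.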

Other observations

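Genes next to Elane and Prtn3 on chromosome 10 had log2 ratios of the same size. Taking 3 protein-coding genes on each side in RefSeq order, 5 of 6 neighbours were measured and 4 of the 5 were higher with IL-6. Ptbp1, a splicing regulator, had 0.10, Plppr3 0.10, Med16, a Mediator subunit, 0.15 and R3hdm4 0.17, beside 0.14 for Prtn3 and 0.09 for Elane. The Med16 probe had a scaled signal of 469040 with IL-6 and 423383 without, the highest of the measured neighbours. Whether it reads Med16 alone was not tested. Cfd, a serine protease gene of the same cluster that encodes complement factor D, had -0.09 at a scaled signal of 46.3 with IL-6 and 49.2 without, in the lowest 25% of genes by signal. Around all 6 genes, 19 of 30 neighbours were measured, with log2 ratios from -0.27 to 0.30 and a median of 0.10, against -0.02 for all measured genes. These neighbours were looked up after the values of the 6 genes were seen.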
